A study of Mus musculus with 14 samples.

Results

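Carbonic anhydrases are enzymes that interconvert carbon dioxide and bicarbonate, and so handle the acid that cells and tissues release or take up. The members of the mouse family followed here were Car1, Car2, Car3, Car4, Car5a, Car8, Car13 and Car14, measured in liver sinusoidal endothelial cells (LSECs). They are 8 of the 54524 Ensembl genes in the table, and they were found by their symbols in GENCODE vM21. The family was selected on the day 1 and healthy values of Car4, which was near 0 in healthy LSECs and higher at day 1, and the other members are its paralogs. All values of the comparison of day 1 with healthy LSECs are therefore descriptions without a test, as are all comparisons of Car4 with healthy LSECs or with day 1. All 8 members passed the filter on low counts.

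Family members differ in where they work. Car1, Car2, Car3 and Car13 are cytosolic, Car5a is mitochondrial, Car4 is anchored to the outer face of the plasma membrane by a lipid (GPI), and Car14 is a transmembrane protein with its enzyme domain outside the cell. Car8 is a related protein without enzyme activity that binds the inositol trisphosphate receptor. In liver, Car3, Car5a and Car14 are known from hepatocytes, Car1 and Car2 from red cells, Car2 also from bile duct cells, and Car4 from capillary endothelium in organs such as lung.

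LSECs, which line the liver sinusoids, were sorted from livers of male Balb/c mice, labelled as 10 to 12 weeks old. The healthy group held 4 samples from mice without any injection. The other samples came from mice that had received carbon tetrachloride (CCl4), a solvent that injures hepatocytes, once and intraperitoneally at 0.5 µl per g body weight in mineral oil, 1 day (2 samples), 3 days (4 samples) or 7 days (4 samples) before. No group received oil alone, so the oil and the CCl4 cannot be told apart. The methods give a somewhat older age range and add CD45 to the markers excluded by the sort, which kept CD32+, F4/80-, UV- and propidium iodide-negative cells. Further samples of day 1 were left out by the study because of low RNA quality. The labels do not say whether each sample came from a single mouse, so p-values measure the spread between these samples.

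All 12 LSEC markers had at least 3 counts in every sample. Their summed level ran from 19345 to 23564 CPM (counts scaled to a common library size by the TMM method) in the healthy samples and from 11572 to 16504 CPM after CCl4. CD32 is the product of Fcgr2b, 1 of these 12 genes, and was used in the sort. Markers of other cells were present too. Hepatocyte markers (12 genes, 12 of them detected in every healthy, day 3 and day 7 sample and 11 at day 1) summed to 231, 285 and 426 CPM in 3 healthy samples and to 10135 CPM in healthy replicate 4, to 37.9 and 183 CPM at day 1, 904 to 3187 CPM at day 3 and 861 to 6993 CPM at day 7. Neutrophil and monocyte markers (12 genes) summed to 510 to 1373 CPM in healthy samples, 8777 and 4419 CPM at day 1, and 4148 to 9554 CPM at day 7. At day 3 replicates 1 and 2 had 12503 and 7723 CPM of them, and replicates 3 and 4 had 1455 and 1334 CPM. A single gene, Lyz2, the lysozyme of monocytes, macrophages and neutrophils, made up 94.5% to 98.1% of this sum at day 7 but 19.4% and 34.1% at day 1. Without Lyz2, an alternative chosen after seeing the data, the other 11 markers summed to 29.6 to 195 CPM in healthy samples, 7076 and 2910 CPM at day 1, 4127, 2235, 108 and 67.4 CPM at day 3, and 176 to 303 CPM at day 7. Eosinophil markers (9 genes) summed to 8.40 to 50.4 CPM in healthy samples and 159 and 63.0 CPM at day 1. At day 3 they summed to 7.02 to 79.0 CPM, and at day 7 to 38.0 to 58.6 CPM. Of these genes, 6 had at least 3 counts in both day 1 samples, and 4 in every healthy sample. Epx, also in this list, was below 3 counts in every healthy, day 1 and day 7 sample. Lipid-handling macrophage markers (9 genes) summed to 273 to 311 CPM in healthy samples and 1238 and 677 CPM at day 1. They had 907 to 2599 CPM at day 3 and 1566 to 7709 CPM at day 7. Stellate cell markers (12 genes) had 167 to 300 CPM in healthy samples and 369 to 5238 CPM at day 7. Cholangiocyte markers (6 genes) had 9.69 to 22.5 CPM in healthy samples and 40.2 and 42.2 CPM at day 1. Kupffer cell and lymphocyte markers overlapped between healthy and later samples. In bulk RNA fewer cells of a type and less RNA per cell cannot be told apart. Healthy replicate 4 stands apart, and results that rest on it are given with and without it.

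Promoters are printed for the 3 of 8 members matched in the RefSeq promoter table used here, because Car4 had its highest levels at day 1 while Car5a and Car14 had their lowest group means there. Each covers 250 bases before to 50 bases after the RefSeq start on GRCm38.p6, 5′ to 3′ in the direction of the gene. Capitals mark a TATA box, searched as TATAAA, and the core bound by hypoxia-inducible factors. This core was searched as ACGTG and reads CACGT where it lies on the opposite strand. The windows lie at chr11:84957504-84957803 on the plus strand for Car4, chr8:121944863-121945162 on the minus strand for Car5a, and chr3:95904636-95904935 on the minus strand for Car14.
Car4: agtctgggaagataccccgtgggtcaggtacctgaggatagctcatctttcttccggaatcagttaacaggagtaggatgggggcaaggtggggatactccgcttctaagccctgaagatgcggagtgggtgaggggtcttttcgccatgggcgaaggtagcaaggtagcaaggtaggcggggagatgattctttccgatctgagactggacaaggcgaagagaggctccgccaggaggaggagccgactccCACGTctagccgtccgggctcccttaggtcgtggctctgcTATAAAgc
Car5a: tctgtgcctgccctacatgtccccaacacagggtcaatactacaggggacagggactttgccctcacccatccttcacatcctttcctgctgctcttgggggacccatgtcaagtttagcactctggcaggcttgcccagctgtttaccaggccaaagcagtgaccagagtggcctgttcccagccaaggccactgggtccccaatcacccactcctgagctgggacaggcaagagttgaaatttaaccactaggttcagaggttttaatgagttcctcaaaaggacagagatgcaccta
Car14: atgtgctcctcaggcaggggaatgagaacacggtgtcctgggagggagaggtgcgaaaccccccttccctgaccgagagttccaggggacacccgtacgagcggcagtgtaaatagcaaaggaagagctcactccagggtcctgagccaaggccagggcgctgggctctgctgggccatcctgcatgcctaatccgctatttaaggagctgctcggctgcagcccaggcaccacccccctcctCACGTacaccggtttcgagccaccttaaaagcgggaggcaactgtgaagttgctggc
Counted from 1 at the start, the TATA box letters began at 43 in Car4, which lies after the start, and the hypoxia core began at 3 in Car4 and at -7 in Car14. Both strands were searched, and 13.6% of the 32851 promoters in the table held the first motif and 19.6% the second. None of the 3 windows held the other motifs searched. Of all promoters, the AP-1 motif TGANTCA was in 7.81%, the PU.1 motif GAGGAAG in 13.6%, the motif of blood cell GATA factors, spelled AGATAA, in 11.2%, the HNF1 motif GTTAAT in 7.10% and the C/EBP motif TTGCNNAA in 10.8%. CpG pairs numbered 15 in Car4, 13 in Car14 and 0 in Car5a, against a median of 7 over all promoters.

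Car4 (ENSMUSG00000000805, chromosome 11, 84957786 to 84966044 on GRCm38) went from almost no counts in healthy LSECs to a level near that of Car8, per length, at day 1, and stood far lower again at days 3 and 7. Healthy replicate 1 held 8 counts (0.0798 CPM) and the other 3 healthy samples held 0. A count of 0 allows up to 3 counts in a sample, which is between 0.0299 and 0.0352 CPM in the healthy samples. At day 1 the samples held 7034 and 5633 counts, or 84.1 and 62.0 CPM. At day 3 the 4 replicates had 2.79, 0.595, 1.81 and 0 CPM, and at day 7 they had 6.72, 0.797, 0.198 and 0.931 CPM. The mean was 73.1 ± 15.6 CPM (SD, n = 2) at day 1, 1.30 ± 1.25 CPM (SD, n = 4) at day 3 and 2.16 ± 3.06 CPM (SD, n = 4) at day 7. Both day 1 samples lay above each of the other 12 samples, and the day 7 samples lay above the healthy samples, while day 3 and healthy samples overlapped.

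The fitted log2 fold change of Car4 against healthy LSECs was 11.65 at day 1, 5.84 at day 3 and 6.59 at day 7, given as descriptions. Each of these rests on the 8 counts of healthy replicate 1. Day 7 against day 3 was the one comparison of Car4 that was tested, and it gave 0.74 on the log2 scale (standard error, SE, 1.15, edgeR adjusted p = 0.782), with overlapping samples. Without day 7 replicate 1 this value was -0.85.

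Of the neutrophil and monocyte markers, Lyz2 and the other 11 stood differently against Car4. Summed with Lyz2, day 3 replicate 1 had the highest level, 12503 CPM, with 2.79 CPM of Car4, and day 7 replicates 2 and 3 had 9554 and 9232 CPM with 0.797 and 0.198 CPM of Car4, of which Lyz2 alone was 9304 and 9056 CPM. Without Lyz2 the day 1 samples, with 7076 and 2910 CPM, stood above all healthy and day 7 samples, as they did in Car4. Day 3 replicate 1 then lay between the day 1 samples, with 4127 CPM, and day 3 replicate 2 below them, with 2235 CPM, while their Car4 was 2.79 and 0.595 CPM. Mmp8, the collagenase of neutrophil granules, is 1 of these markers and stood highest at day 1, with 254 and 89.8 CPM, against 33.6, 42.8, 3.24 and 1.05 CPM at day 3, 10.8, 7.19, 4.17 and 2.73 CPM at day 7, and 0.561 to 1.64 CPM in healthy samples. Ly6g, a surface protein of neutrophils, was highest at day 1 too, with 12.7 and 3.84 CPM, against 3.18, 1.41, 0.513 and 0 CPM at day 3, 0.419 to 1.40 CPM at day 7 and 0 to 0.589 CPM in healthy samples. Lyz2 was lower at day 1, with 1701 and 1509 CPM, than at day 7, with 3919 to 9304 CPM. Mmp8 is also 1 of the genes most like Car4, and the remaining markers of this list are given only in the sum. The part of neutrophils and monocytes in the level of Car4 was not tested.

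**Figure D1:**
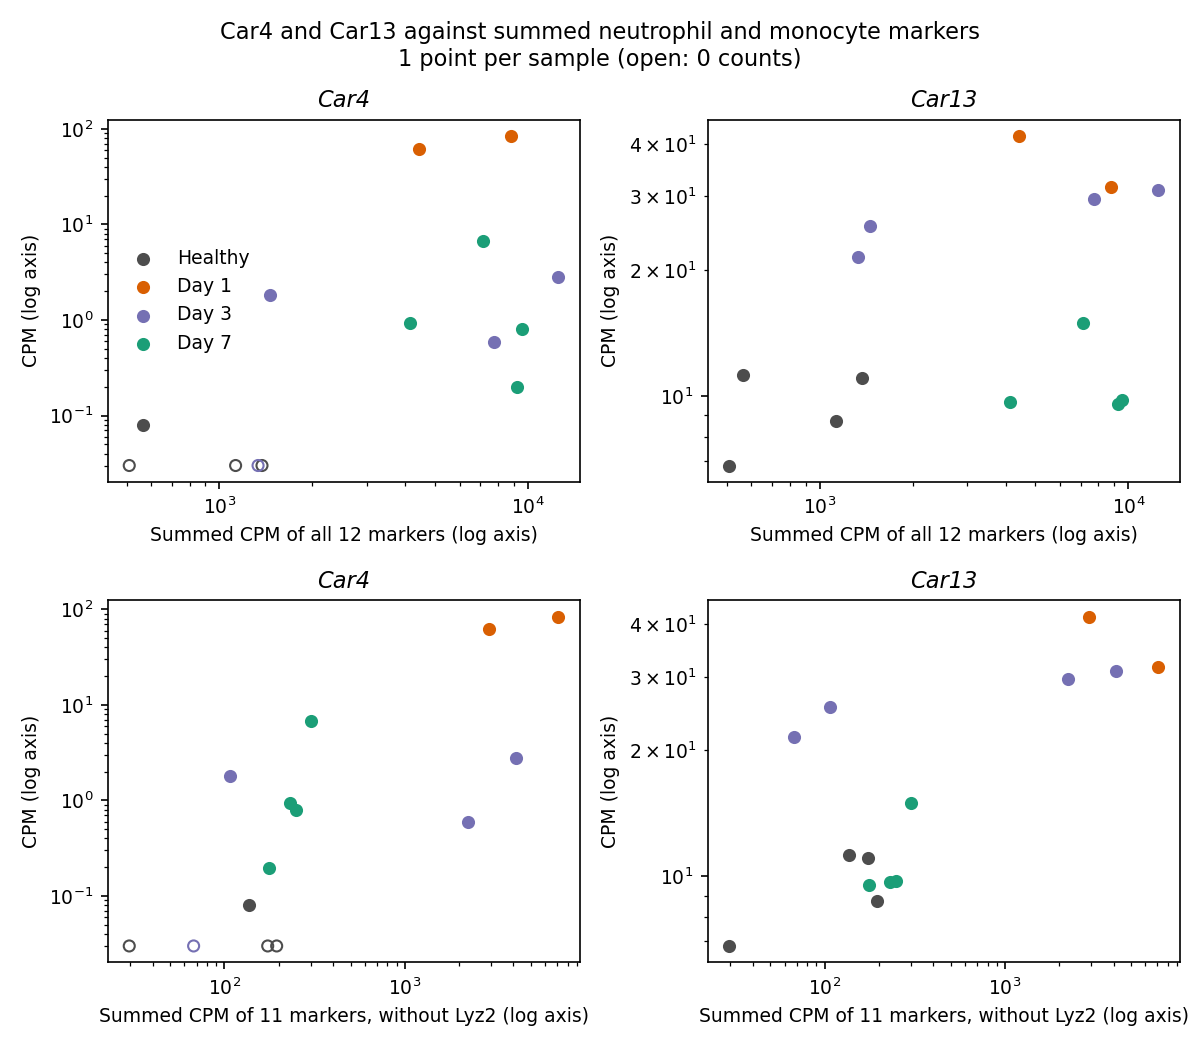
Car4 (left) and Car13 (right) in CPM against the summed CPM of 12 neutrophil and monocyte markers (top) or of the 11 markers without Lyz2 (bottom), all on log axes, with 1 point per sample coloured by group and open points for samples with 0 counts, drawn at the bottom. The day 7 samples lie at 4148 to 9554 CPM with Lyz2 and at 176 to 303 CPM without it, and day 3 replicate 1, with 2.79 CPM of Car4, lies among the highest samples on both scales.

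Car4 had neighbours by likeness among 11128 protein-coding genes with at least 5 CPM in a group. Over the 14 samples, the 8 genes with the highest Pearson correlation of log2 CPM with Car4 were Diaph1 (0.90), an actin-nucleating formin, Olfm4 (0.90), Ltb4r1 (0.89), the leukotriene B4 receptor, Slc7a11 (0.89), a cystine transporter, Tarm1 (0.88), Ch25h (0.88), which makes an oxysterol, Mmp8 (0.88) and Frrs1 (0.88). The 14 points share the 4 groups and include the healthy and day 1 values of Car4 that chose the family. Genes that stood highest at day 1 rank high here because of that choice, and all 8 had their highest mean there. These values are descriptions. Ch25h had a mean of 262 CPM at day 1 against 3.05 CPM in healthy samples, 25.6 CPM at day 3 and 12.9 CPM at day 7. Slc7a11 had means of 1.00, 23.7, 5.31 and 3.15 CPM in healthy, day 1, day 3 and day 7 samples. In the same order, Olfm4 had 0.0497, 9.07, 0.725 and 0.243 CPM, and Tarm1 had 0.0831, 6.18, 1.36 and 0.596 CPM. Ltb4r1 had 1.58, 22.4, 6.35 and 5.23 CPM. Diaph1 had 21.8, 56.2, 38.0 and 38.0 CPM, and Frrs1 had 30.6, 119, 53.2 and 42.8 CPM.

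Car13 (ENSMUSG00000027555, chromosome 3, 14641727 to 14663002) was higher at day 3 than in healthy LSECs and lower again at day 7. The healthy samples had 11.2, 11.1, 8.72 and 6.82 CPM. The day 3 samples had 31.05, 29.6, 25.4 and 21.5 CPM, each above every healthy sample. At day 7 the samples had 14.9, 9.78, 9.55 and 9.69 CPM, each below every day 3 sample and overlapping with the healthy ones. The mean was 9.46 ± 2.10 CPM (SD, n = 4) in healthy LSECs, 26.9 ± 4.30 CPM (SD, n = 4) at day 3 and 10.99 ± 2.64 CPM (SD, n = 4) at day 7. Both day 1 samples, with 31.6 and 41.8 CPM, were above each healthy and day 7 sample and each day 3 sample. That is a description.

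In the test, the log2 fold change of Car13 at day 3 against healthy LSECs was 1.51 (SE 0.23, edgeR adjusted p = 0.00273). It fell by 1.29 on the log2 scale from day 3 to day 7 (SE 0.23, edgeR adjusted p = 0.0157). At day 7 the log2 fold change against healthy LSECs was 0.22 (SE 0.22, edgeR adjusted p = 0.625). Called at day 3 in all 14 fits that left out 1 sample, the rise had an adjusted p of at most 0.0142 there. The fall was called in 7 of these 14 fits. It was lost without day 1 replicate 1 or 2, day 3 replicate 1 or 3, or day 7 replicate 2, 3 or 4, with adjusted p up to 0.112, and the log2 fold change then lay between -1.24 and -1.08. Day 3 replicates 3 and 4 had 25.4 and 21.5 CPM of Car13 with 1455 and 1334 CPM of neutrophil and monocyte markers, or 108 and 67.4 CPM without Lyz2. The day 7 samples had less Car13 and more of these markers, 4148 to 9554 CPM, nearly all of it Lyz2, or 176 to 303 CPM without it. In both day 1 samples and in day 3 replicates 1 and 2, Car13 and the 11 markers were both above their levels in every healthy and day 7 sample. The part of these cells in Car13 was not tested. The 3 genes most like Car13 over the 14 samples were Plaur (0.95), the urokinase receptor, Cd3eap (0.93), a subunit of RNA polymerase I, and Apex1 (0.93), a DNA repair endonuclease.

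Car8 (ENSMUSG00000041261, chromosome 4, 8143362 to 8239041) was, per length, the leading member in 3 of 4 healthy samples, and was lower at day 7. Healthy samples had 343, 283, 294 and 330 CPM. Day 1 samples had 107 and 196 CPM, and day 3 samples had 186, 221, 91.5 and 88.6 CPM. At day 7 the samples had 137, 71.8, 76.4 and 115 CPM. Each of the 10 samples after CCl4 lay below each of the 4 healthy samples. At day 3 Car8 stood higher in replicates 1 and 2, the samples with more neutrophil and monocyte markers, than in replicates 3 and 4.

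The mean of Car8 was 313 ± 28.6 CPM (SD, n = 4) in healthy LSECs, 152 ± 62.3 CPM (SD, n = 2) at day 1, 147 ± 67.1 CPM (SD, n = 4) at day 3 and 100 ± 31.4 CPM (SD, n = 4) at day 7. The log2 fold change against healthy LSECs was -1.64 at day 7 (SE 0.33, edgeR adjusted p = 0.0190), and it was -1.09 at day 3 (SE 0.32, edgeR adjusted p = 0.0591), which did not pass the threshold. Leaving out 1 sample ended the call at day 7 for healthy replicate 1, day 7 replicate 2 and day 7 replicate 3, with adjusted p up to 0.0750 and log2 fold changes between -1.60 and -1.50. The summed LSEC markers stood lower in the samples after CCl4 too. Their medians were 21866 CPM in healthy samples, 14870 CPM at day 1, 13969 CPM at day 3 and 14922 CPM at day 7. Within day 3, replicates 1 and 2 had 11878 and 12823 CPM of them with 186 and 221 CPM of Car8. Replicates 3 and 4 had 15116 and 16212 CPM with 91.5 and 88.6 CPM of Car8. The part of LSEC content in the fall of Car8 was not tested. Car8 overlaps Gm11799 on its own strand and Gm25355 on the opposite one, and use of the strand in counting is not given in the sources used here. Its 3 most like genes were Cd55 (0.95) and Cd59a (0.94), which protect cells from complement, and Nprl2 (0.93), a regulator of mTORC1. Cd55 had means of 1165 CPM in healthy LSECs and 594 CPM at day 7.

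Car2 (ENSMUSG00000027562, chromosome 3, 14886273 to 14900770) had overlapping values in all groups. It had 21.1 to 32.4 CPM in healthy samples, 26.3 and 25.2 CPM at day 1, 21.2 to 36.6 CPM at day 3 and 18.6 to 40.5 CPM at day 7. Its log2 fold change against healthy LSECs was 0.05 at day 3 (SE 0.25, edgeR adjusted p = 0.929) and 0.19 at day 7 (SE 0.25, edgeR adjusted p = 0.711). Its 3 most like genes were Cntrl (0.83), Pwwp2a (0.82) and Lcorl (0.76).

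**Figure D2:**
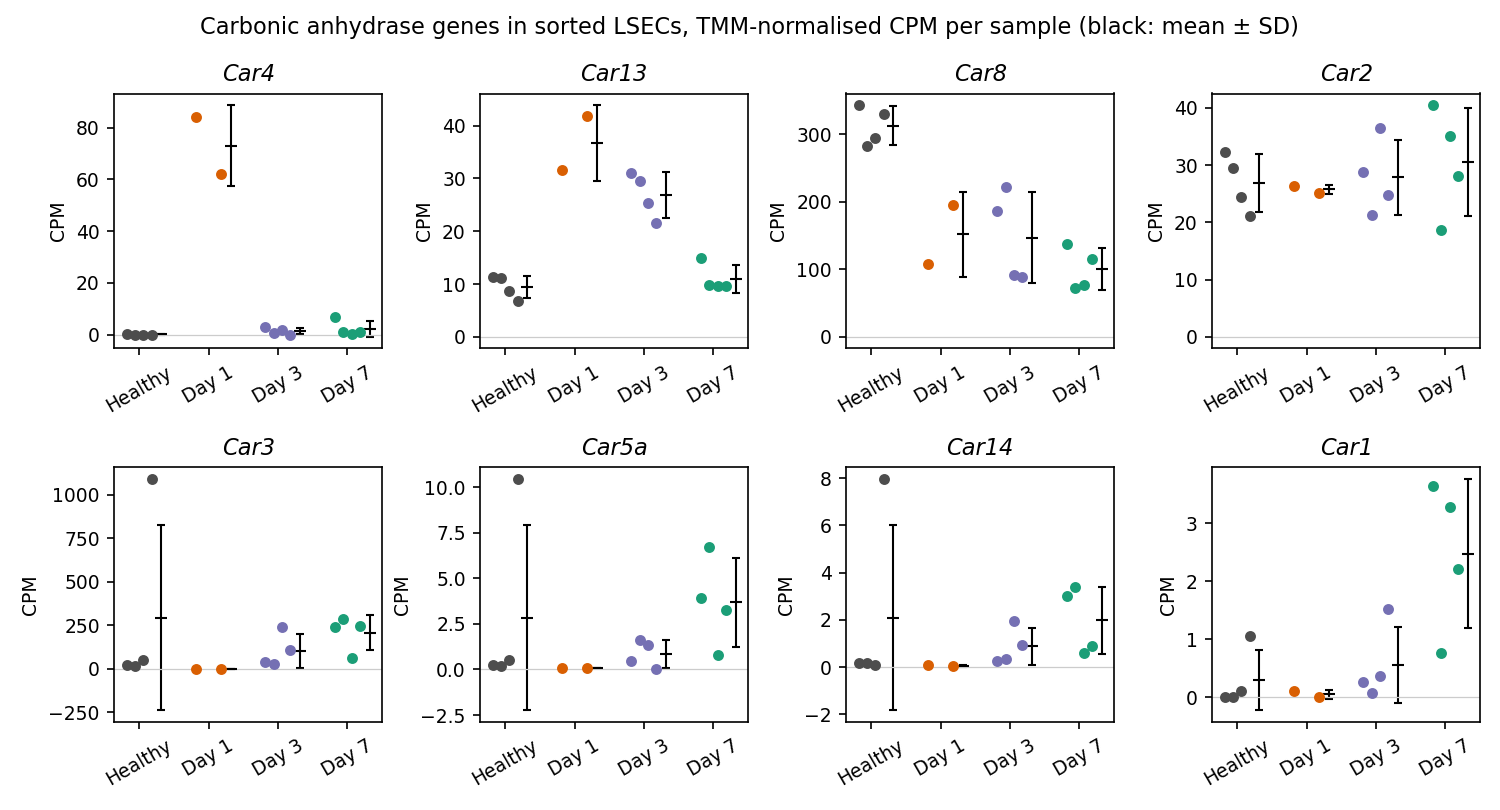
TMM-normalised CPM of the 8 members in the 14 samples, with 1 point per sample, a separate linear axis per gene, and the black bar giving mean ± SD. Car4 reaches 84.1 CPM at day 1, the day 3 samples of Car13 (21.5 to 31.05 CPM) lie above the healthy samples, each Car8 sample after CCl4 lies below the healthy range of 283 to 343 CPM, and healthy replicate 4 stands apart in Car3, Car5a, Car14 and Car1.

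Car3 (ENSMUSG00000027559, chromosome 3, 14863512 to 14872523) ranged widely within groups. Healthy samples had 19.5, 14.1, 50.3 and 1094 CPM. The day 1 samples had 0.837 and 0.638 CPM, below all other samples. Day 3 samples had 39.3, 29.5, 238 and 106 CPM, and day 7 samples had 239, 286, 60.9 and 246 CPM. Healthy replicate 4, the highest of all, also had the most hepatocyte markers. The log2 fold change at day 7 against healthy LSECs was -0.50 (SE 1.13, edgeR adjusted p = 0.841) with healthy replicate 4 and 2.93 (adjusted p = 0.0605) without it. At day 3 it was -1.51 (SE 1.15, edgeR adjusted p = 0.490) with that sample and 1.83 (adjusted p = 0.188) without it.

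Set against albumin (Alb), the main secreted protein of hepatocytes, Car3 had 204, 204, 404 and 419 counts per 1000 Alb counts in the healthy samples, so replicate 4 lay close to replicate 3 on this scale. At day 1 it had 68.0 and 10.7, at day 3 between 51.1 and 197, and at day 7 between 106 and 322. Day 1 replicate 2 was the lowest of the 14 samples on this scale, and day 1 replicate 1 lay above day 3 replicate 2 and below the other samples. Akr1c14 (0.99) and Cyp4f14 (0.98) were among the genes most like it. Among the members, Car14 was most like Car3 (0.89). The part of hepatocyte RNA in Car3 was not tested.

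Car5a (ENSMUSG00000025317, chromosome 8, 121916126 to 121944904) had 0.230, 0.164, 0.520 and 10.5 CPM in healthy samples and 0.0957 and 0.0770 CPM at day 1. It had 0.472, 1.63, 1.35 and 0 CPM at day 3 and 3.93, 6.71, 0.794 and 3.27 CPM at day 7. Like Car3, it was highest in healthy replicate 4. Its log2 fold change at day 7 against healthy LSECs was 0.37 (SE 1.29, edgeR adjusted p = 0.905), and 3.62 (adjusted p = 0.112) without healthy replicate 4. Per 1000 Alb counts it lay between 1.12 and 7.77 in 13 samples and at 0 in day 3 replicate 4. Car5a overlaps BC048644 and Gm20388 on the opposite strand by the whole spans of the genes. Their exons were not compared, which leaves its counts uncertain. Prlr (0.96), Ces1g (0.96) and Sorbs2 (0.96) were most like it.

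Car14 (ENSMUSG00000038526, chromosome 3, 95897768 to 95904691) had 0.160, 0.153, 0.0832 and 7.98 CPM in healthy samples and 0.0837 and 0.0330 CPM at day 1. It had 0.266, 0.357, 1.97 and 0.945 CPM at day 3 and 3.00, 3.40, 0.595 and 0.897 CPM at day 7. The 4 day 7 samples lay above 3 healthy samples and below healthy replicate 4. The log2 fold change at day 7 was -0.08 (SE 1.21, edgeR adjusted p = 0.983) with healthy replicate 4, and without it 3.94 (adjusted p = 0.0337). Per 1000 Alb counts Car14 lay between 0.552 and 6.80. It overlaps Aph1a on the opposite strand. Apon (0.97), Slc22a7 (0.96) and Slc38a4 (0.96) were most like it.

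**Figure D3:**
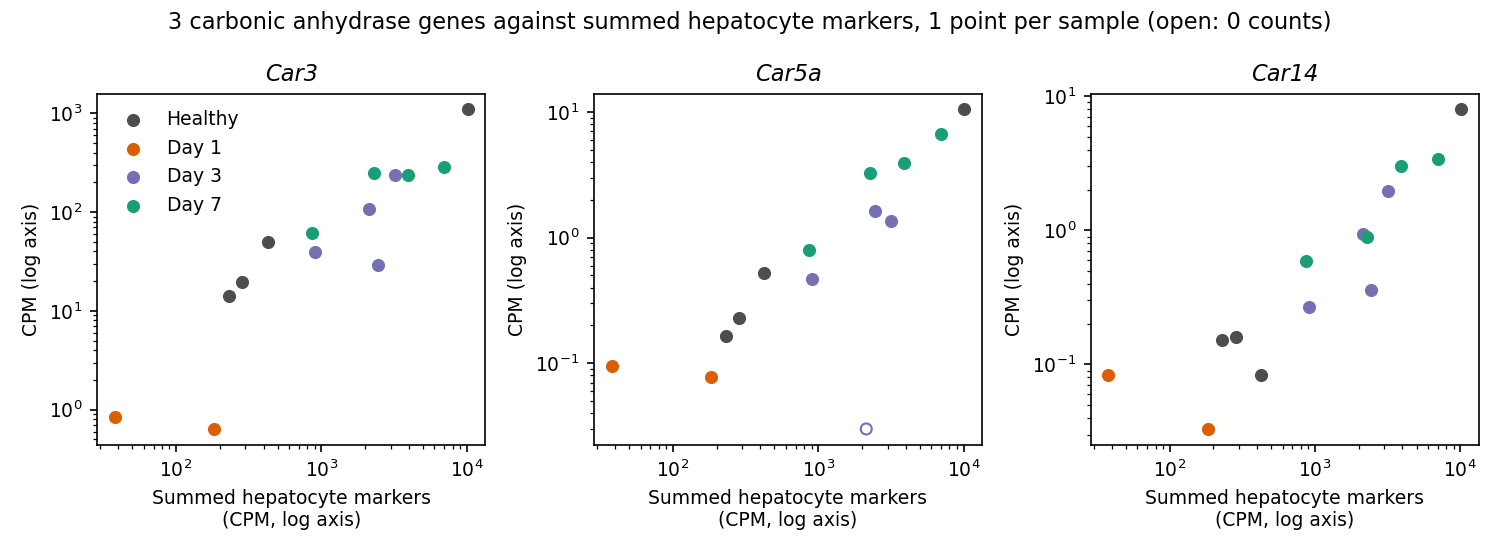
Car3, Car5a and Car14 in CPM against the summed CPM of 12 hepatocyte markers, on log axes, with 1 point per sample coloured by group and an open point for a sample with 0 counts. Healthy replicate 4, with 10135 CPM of hepatocyte markers, is at the upper right in each panel, and the day 1 samples, with 37.9 and 183 CPM, are at the lower left.

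Car1 (ENSMUSG00000027556, chromosome 3, 14766216 to 14808368) had 0, 0, 0.114 and 1.06 CPM in healthy samples, 0.108 and 0 CPM at day 1, 0.266, 0.0851, 0.371 and 1.53 CPM at day 3, and 3.64, 0.769, 3.29 and 2.21 CPM at day 7. Of the day 7 samples 3 lay above all samples of the other groups. The log2 fold change at day 7 against healthy LSECs was 3.07 (SE 1.43, edgeR adjusted p = 0.237), and 5.97 (adjusted p = 0.0503) without healthy replicate 4. Erythroid markers (10 genes) summed to 349 to 534 CPM in healthy samples, 93.3 and 265 CPM at day 1, 174 to 1292 CPM at day 3 and 273 to 972 CPM at day 7. At day 3 replicates 1 and 2 had 1131 and 1292 CPM of these markers, with 0.266 and 0.0851 CPM of Car1. Replicates 3 and 4 had 238 and 174 CPM of them, with 0.371 and 1.53 CPM of Car1. Among the members, Car14 was most like Car1 (0.75). The part of erythroid or hepatocyte RNA in Car1 was not tested. Car1 overlaps Gm16399 on the same strand. F7 (0.86), which makes a clotting factor of hepatocytes, Per3 (0.86) and Stra6l (0.85) were most like it. Car13, Car1, Car3 and Car2 lie within 259044 bp of chromosome 3 (14641727 to 14900770). Neighbours in this cluster had correlations of log2 CPM over the 14 samples of -0.33 for Car13 and Car1, 0.71 for Car1 and Car3 and 0.00 for Car3 and Car2.

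Counted over the members, few calls were made. At day 3 against healthy LSECs, 1 of the 7 members tested was called higher (Car13) and 0 lower, where edgeR called 7.19% of 26626 genes in either direction. At day 7 against healthy LSECs 1 of 7 was called lower (Car8) and 0 higher, where 3.18% of all genes were called. For day 7 against day 3, with 8 members tested, 1 was called lower (Car13), against 1.77% of all genes. For day 3 against day 1, edgeR called 0 of 7 members, against 2.54% of all genes. Car3 alone had an unadjusted p under 0.05 there in edgeR (adjusted p = 0.0913), limma also called 0, DESeq2 called 0 of the 6 members to which it gave an adjusted p, and without healthy replicate 4 the adjusted p of Car3 was 0.00827. A single call among 7 or 8 members is not read as a result about the family. In the comparison of day 1 with healthy LSECs, which chose the family, edgeR called 4.06% of all genes. In it Car4 stood higher in both day 1 samples than in all healthy samples, which its choice had fixed, so it is not counted. Of the other 7 members, Car13 stood higher in this way, as did 20.0% of all genes tested. Lower in both day 1 samples stood 3 (Car3, Car5a and Car8), as did 17.9% of all genes tested. The fitted log2 fold changes there were 1.95 for Car13, -1.04 for Car8, -0.06 for Car2, -8.64 for Car3, -5.02 for Car5a, -5.14 for Car14 and -2.44 for Car1. Without healthy replicate 4 they were 1.80 for Car13, -1.04 for Car8, -0.18 for Car2, -5.27 for Car3, -1.83 for Car5a, -1.18 for Car14 and 0.42 for Car1, whose sign turned. Over the 8 members the median log2 fold change was -0.52 at day 3 and 0.20 at day 7 against healthy LSECs, and over all genes tested it was 0.18 and 0.02. Both medians of the members rest on healthy replicate 4. Without it they were 1.60 at day 3, where the sign turned, and 3.27 at day 7, against 0.11 and 0.05 over all genes. All of these medians include Car4, at 5.84 and 6.59 with healthy replicate 4, whose healthy values chose the family. They are descriptions and are not read as a result.

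**Figure D4:**
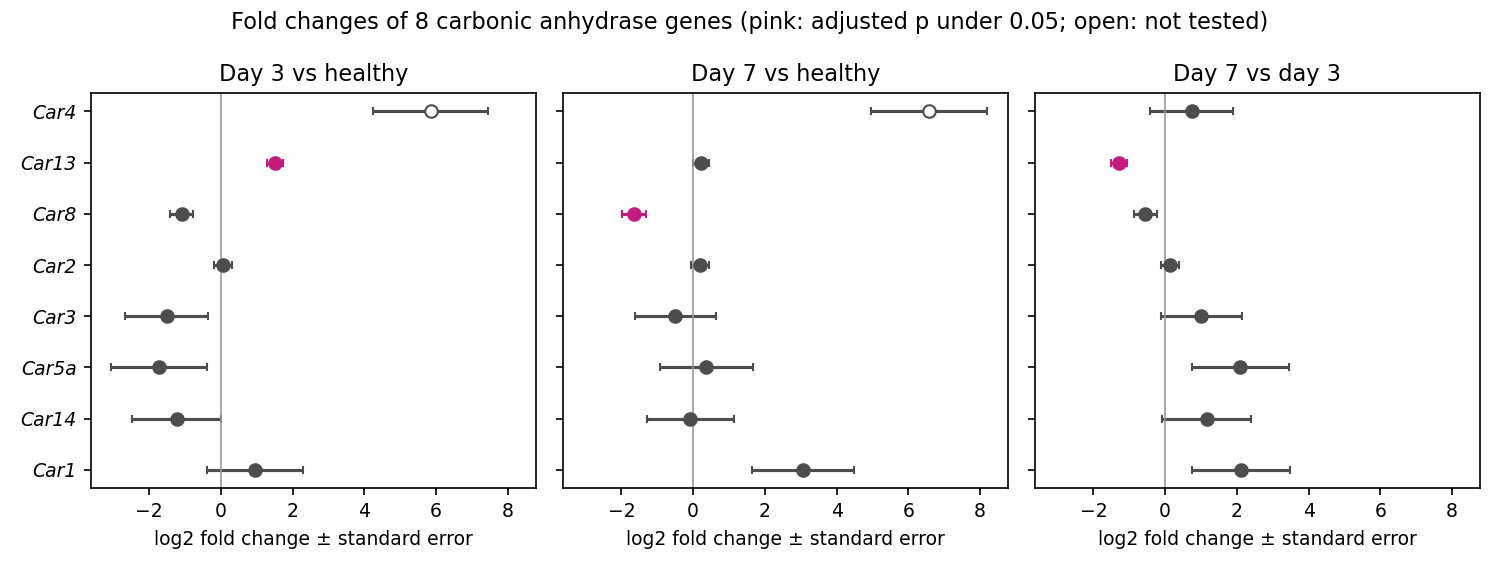
Fitted log2 fold changes of the 8 members, with bars for the standard error, in 3 comparisons. Filled pink points passed an adjusted p of 0.05 (Car13 at 1.51 and -1.29, Car8 at -1.64), grey points did not (healthy replicate 4 included throughout), and the open points are Car4 against healthy LSECs, which was not tested.

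Per length, the family's make-up differed between groups, which is a description without a test. Levels were divided by exonic length and expressed as a share of the summed CPM per kb of 16 carbonic anhydrase genes. Each share was taken from the group means. The shares of Car4 in healthy LSECs and at day 1 follow from the values that chose the family. In healthy LSECs these shares were 49.9% for Car3, 39.4% for Car8 and 5.38% for Car2. Within single healthy samples Car3 held 5.72%, 4.96%, 15.8% and 77.1%, and Car8 74.8%, 74.2%, 68.5% and 17.3%, so Car3 led in replicate 4 only. With the means taken without healthy replicate 4, the shares were 8.88% for Car3, 72.5% for Car8 and 10.8% for Car2. At day 1 Car8 held 35.4%, Car4 33.4%, Car13 14.3% and Car2 9.56%. Car4 and Car8 stood at 37.2 ± 7.96 and 39.3 ± 16.2 CPM per kb (SD, n = 2) there, which do not differ beyond their spread. At day 3 Car8 held 35.4%, Car3 33.4%, Car13 10.9% and Car2 10.7%, and Car4 held 0.614%. At day 7 Car3 held 57.0%, Car8 20.4% and Car2 9.91%.

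**Figure D5:**
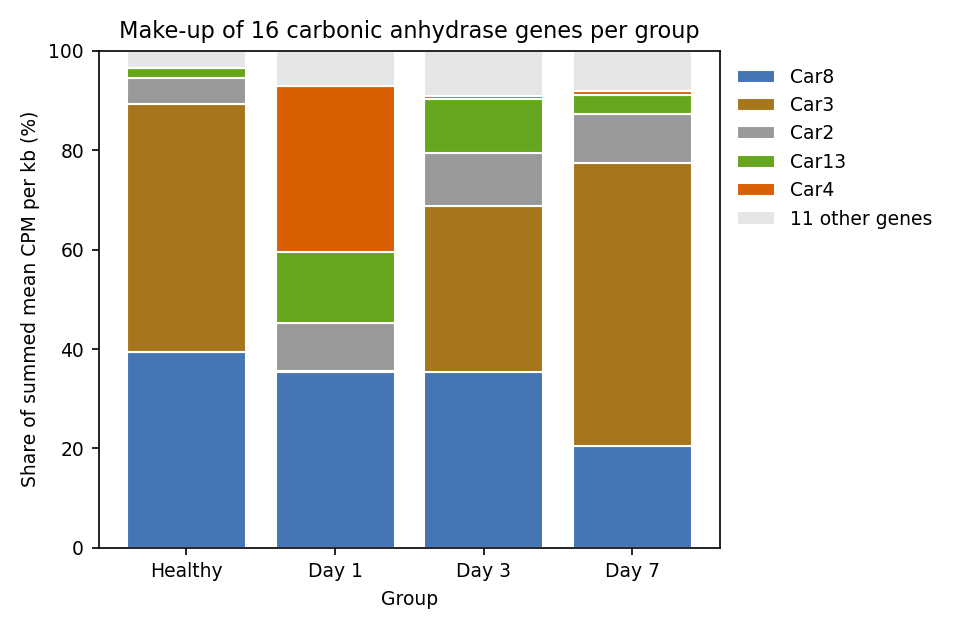
Share of each gene in the summed mean CPM per kb of 16 carbonic anhydrase genes, as stacked bars for the 4 groups, with 11 genes drawn together. Car4 holds 33.4% at day 1, where its values chose the family, and 0.614% at day 3. The share of Car3 in healthy LSECs (49.9%) rests on replicate 4.

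The other 8 carbonic anhydrase genes of the annotation passed the filter, and 1 of them was called at day 3 against healthy LSECs, where 7.19% of all genes were. Car11, a related protein without enzyme activity (chromosome 7, 45699843 to 45704682), had 2.81, 2.07, 1.79 and 2.23 CPM in healthy samples, 8.30 and 10.7 CPM at day 1, 10.9, 20.4, 5.76 and 3.15 CPM at day 3, and 3.10, 4.29, 1.79 and 2.38 CPM at day 7. All 4 day 3 samples lay above all healthy samples, and the log2 difference was 2.17 (SE 0.48, edgeR adjusted p = 0.0175). Car9, the membrane enzyme known as a target of hypoxia, had means of 0.737 ± 0.155 CPM in healthy LSECs and 1.87 ± 1.33 CPM at day 3 (SD, n = 4), with a log2 difference of 1.34 (SE 0.54, edgeR adjusted p = 0.155). Mitochondrial Car5b stayed between 5.06 and 8.002 CPM in every sample. Car6, Car10, Car12 and Car15 had means under 1 CPM in every group, and Car7 had means of 2.17 to 3.55 CPM.

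Bicarbonate leaves or enters cells through transporters of the Slc4 and Slc26 families, and protons through Slc9 exchangers, Slc16 lactate carriers and the Hvcn1 channel. Of 30 such genes and gas channels, 27 passed the filter. At day 3 against healthy LSECs 3 were called higher and 1 lower, where 7.19% of all genes were called. The sodium-dependent exchanger Slc4a8 rose from 0.519 ± 0.0648 to 3.54 ± 0.615 CPM (SD, n = 4; log2 fold change 2.77, SE 0.38, edgeR adjusted p = 0.00200). Slc4a1, the anion exchanger of red cells, rose by 2.29 on the log2 scale (edgeR adjusted p = 0.0400). Its level was low, at 0.214 ± 0.103 CPM in healthy LSECs and 1.05 ± 0.881 CPM at day 3 (SD, n = 4). Slc16a3, the lactate carrier MCT4, rose by 1.81 on the log2 scale (edgeR adjusted p = 0.0350), from 4.00 ± 1.79 to 14.05 ± 5.76 CPM (SD, n = 4). Hvcn1, the proton channel known from phagocytes and B cells, fell by 2.05 on the log2 scale (adjusted p = 0.0447), from 35.5 ± 6.76 to 8.55 ± 7.88 CPM (SD, n = 4). At day 7 Slc4a8 remained called, with 2.03 ± 1.15 CPM (log2 fold change 1.96, edgeR adjusted p = 0.0149), and no other gene of the lists was, where 3.18% of all genes were called. With 1 sample left out, the number called at day 3 was 1 to 4, and 2 or fewer in 11 of 14 fits, and at day 7 it was 0 without healthy replicate 1 or 3, 3 without healthy replicate 4, 4 without day 3 replicate 4 and 2 without day 7 replicate 1.

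From day 1 to day 3, Slc16a3 fell by 2.43 on the log2 scale (edgeR adjusted p = 0.0310), from 75.6 ± 53.3 (SD, n = 2) to 14.05 ± 5.76 CPM (SD, n = 4), a call that was lost without day 1 replicate 1. It was the only call of the 27 there, where 2.54% of all genes were called. From day 3 to day 7 edgeR called 0 of the 27 and 1.77% of all genes, with 3 at an unadjusted p under 0.05, while DESeq2 called 1 and limma 5. Over the 27 genes the median log2 fold change was 0.40 at day 3 and 0.58 at day 7 against healthy LSECs, against 0.18 and 0.02 over all genes tested. Some of the 27 had almost no counts, where fold changes are uncertain. These medians are descriptions and are not read as a result.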

How the data were processed

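RNA-seq of 14 samples of sorted LSECs was used. Per the methods and the submitters' processing notes, reads were quality-checked and trimmed (FastQC, AfterQC), aligned to GRCm38 by STAR and assembled by StringTie. The authors deposited raw counts per Ensembl gene as whole numbers, 1 column for each sample, not normalized. The annotation release, the use of strand and the step to whole numbers are not given in the sources used here. The samples held between 46401496 and 103912264 counts each. The limit of 3 counts for a count of 0 covers counting error only. Symbols came from GENCODE vM21, in which 54409 genes were found.

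The filterByExpr function (by group, with minima of 10 per gene and 15 in total) kept 26626 genes. After TMM scaling, edgeR 4.0.16 (R 4.3.3) fitted a single quasi-likelihood model with a mean for each of the 4 groups, using all 14 samples. Adjustment was by Benjamini-Hochberg over every gene tested, at a threshold of 0.05. Library sizes scaled by TMM gave the CPM, and log2 CPM used a prior count of 2. The edgeR step was tested on simulated data. Alternatives were DESeq2 1.42.0, which the study's methods name, limma 3.58.1 with voom and sample weights, RLE factors, library size only, no filter, only the 2 groups compared, a replicate block, and leaving out each sample.

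Members and gene lists were chosen with earlier results of these data known. Named genes were the members, the other carbonic anhydrase genes, the 8 (Car4) or 3 genes most like each member, and at most 3 called genes per direction of the transporter lists. The marker genes Lyz2, Ly6g, Fcgr2b and Alb were named outside this rule. A gene that this rule names for Car3 is not reported here. Promoter sequences are from RefSeq.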

Additional observations from a re-analysis of the deposited data

Results flagged for a closer look

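Of 24 groups of 4 samples examined, 7 held a sample far from the others (the gap to the nearest sample divided by the range of the group exceeded Dixon's 95% limit). A chance rate of about 1 in 20 would hold for independent, normally spread groups. These groups share samples and some hold 0 counts, so the 7 are not set against that rate. Of the 7, 4 belong to healthy replicate 4: Car1 at 1.06 CPM (0 to 0.114 in the other 3 samples), Car3 at 1094 CPM (14.1 to 50.3), Car5a at 10.5 CPM (0.164 to 0.520) and Car14 at 7.98 CPM (0.0832 to 0.160). That sample held 10135 CPM of summed hepatocyte markers, against 231 to 426 CPM in the other healthy samples. Day 7 replicate 1 was apart in Car4 at 6.72 CPM (0.198 to 0.931 in the others) and in Car13 at 14.9 CPM (9.55 to 9.78). Car4 in healthy replicate 1 was at 0.0798 CPM, which is 8 counts, with 0 counts in the other healthy samples. With the others at 0 any count passes the limit, and these healthy values chose the family.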

How the results depend on the processing

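Car13 at day 3 against healthy LSECs was called in all 21 alternatives, with log2 fold changes of 1.26 to 1.60, and Car8 at day 7 in 18 of 21. The number of members called at day 3 against healthy LSECs, 1, was 2 with library size only, without the filter and with DESeq2, and 1 to 2 with 1 sample left out, the added gene being Car8 in each of the 3 first. At day 7 against healthy LSECs it was 1, 4 in limma and 0 to 2 with 1 sample left out (2 without healthy replicate 4). For day 7 against day 3 it was 1, 0 in the model of only the 2 groups, 3 in limma and 0 to 1 with 1 sample left out. For day 3 against day 1 it was 0, and 0 to 1 with 1 sample left out. At day 7 against healthy LSECs limma called Car1, Car5a, Car8 and Car14, where it called 7047 of 26626 genes. Its log2 fold change was 6.25 for Car1 (limma adjusted p = 0.00327) and 2.76 for Car5a (limma adjusted p = 0.0403). From day 3 to day 7 it called Car1, Car8 and Car13, where it called 6002 of 26626 genes. Car14 at day 7 against healthy LSECs, -0.08, turned to 2.61 in limma, and ran from -0.48 to 3.94 with 1 sample left out. Of the transporter lists, 4 genes called at day 3 against healthy LSECs became 2 without the filter, 1 with only the 2 groups, 1 with the replicate block, 11 in limma and 1 to 4 with 1 sample left out. At day 7 against healthy LSECs 1 became 5 with only the 2 groups and in DESeq2, 9 in limma and 0 to 4. For day 7 against day 3, 0 became 1 in DESeq2, 5 in limma and 0 to 1. For day 3 against day 1, 1 became 0 with only the 2 groups and with the replicate block, 3 in DESeq2 and 0 to 1. The causes were not tested. DESeq2 gave no adjusted p for Car3 in the 4 comparisons tested or for Car4 in its single one, and these stayed out of its counts.

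Over all genes, the calls at day 1 against healthy LSECs were 1080 (594 with the replicate block, 2327 with only the 2 groups, 2762 in DESeq2, 4308 in limma), at day 3 1915 (1108 with only the 2 groups, 3627 and 7265) and at day 7 846 (435 with the block, 3156 with only the 2 groups, 2619 and 7047). For day 7 against day 3 they were 472 (287 with library size only, 157 without the filter, 244 with the block, 1 with only the 2 groups, 1671 and 6002), and for day 3 against day 1 676 (311 with the block, 189 with only the 2 groups, 2309 and 3344). The replicate numbers come from the labels only. Residuals of the 18 same-numbered pairs correlated between -0.23 and 0.10, with 0 above 0.1. This check showed no pairing but cannot exclude one, since residuals of the 2 day 1 samples mirror each other. The block left the calls of Car13 and Car8 in place. Day 1 has 2 samples, and levels near 3 counts, as of Car4 and Car1 in healthy LSECs, limit any fold change.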
